A study of Mus musculus with 4 samples.

Results

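The MHC class I pathway genes analysed here were 10 of the 27998 genes counted in the files, chosen by name: *B2m*, *H2-K1*, *H2-D1*, *H2-Q6*, *H2-Q7*, *H2-T23*, *Tap1*, *Tap2*, *Tapbp*, and *Nlrc5*. Their transcripts were counted in 4 single-cell RNA-Seq libraries from the spinal cords (SCs) of mice with experimental autoimmune encephalomyelitis (EAE), a model of autoimmune neuroinflammation in which mice are immunized with a myelin peptide (MOG35-55) in adjuvant. The libraries formed 2 pairs with 1 library per condition, which ask how blocking or overexpressing the vascular growth factor Ang2 bears on gene expression in SC cells. In the blockade pair, wild-type C57Bl/6JOlaHsd mice of 15 weeks received an isotype control (mIgG1) or an Ang2-blocking antibody (Ang2 Ab) from the day of immunization and were analysed at 14 days post immunization (dpi). In the overexpression pair, C57Bl/6JCrl mice of 12 to 14 weeks were analysed at 12 dpi, and were either single transgenic littermates (Ctrl) or *EC-Ang2* mice, which carry *VE-cadherin-tTA* and *Tet-OS-Ang2* so that endothelial cells (ECs), in which the VE-cadherin promoter is active, make the factor once doxycycline is withdrawn at birth. All 4 groups were immunized, the pairs differed in substrain, age, day, and the dose of pertussis toxin, and the labels do not say how many animals each library holds. CD45+ immune cells and CD31+ ECs were sorted in equal numbers into each library.

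MHC class I molecules carry peptides from inside the cell to its surface, where CD8+ T cells read them. A heavy chain (the classical *H2-K1* and *H2-D1*, the Qa-2 chains *H2-Q6* and *H2-Q7*, or the Qa-1 chain *H2-T23*, which presents to the NK receptor CD94/NKG2) pairs with the light chain β2-microglobulin (*B2m*). Peptides cut by the proteasome enter the endoplasmic reticulum through the transporter TAP, built of *Tap1* and *Tap2*, and tapasin (*Tapbp*) holds the empty heavy chain beside it. NLRC5 is a transactivator of class I genes, and interferons raise the expression of the whole pathway, which resting CNS cells make sparingly.

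The promoters of 4 members are shown because these genes were lower in every EC-like zone after Ang2 blockade. Among the members compared, the Qa-2 chains also had the highest ratios over all EC-like cells with overexpression. Of the 10 members, 8 had an entry in the RefSeq promoter table (GRCm38.p6), and *Tap2* and *Nlrc5* had none. Capitals mark matches to an interferon regulatory factor core (AANNGAAA), a kappaB site (GGGGATTCC), a CRE-like site of the X2 box (TGACGC), or CCAAT, on either strand, and none of the marked matches overlap. The runs are the exon-free bases upstream of *B2m* at chr2:122147496-122147685 on the plus strand, *H2-K1* at chr17:34000348-34000537 on the minus strand, *H2-Q6* at chr17:35424660-35424849 on the plus strand, and *H2-Q7* at chr17:35438965-35439154 on the plus strand.
B2m: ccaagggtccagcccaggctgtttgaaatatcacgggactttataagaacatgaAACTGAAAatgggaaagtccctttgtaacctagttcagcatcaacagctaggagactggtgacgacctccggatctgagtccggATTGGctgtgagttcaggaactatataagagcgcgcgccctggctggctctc
H2-K1: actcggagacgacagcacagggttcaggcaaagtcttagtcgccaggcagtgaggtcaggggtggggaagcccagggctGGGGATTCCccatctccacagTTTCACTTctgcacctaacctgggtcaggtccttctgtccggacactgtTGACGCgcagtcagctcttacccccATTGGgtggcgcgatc
H2-Q6: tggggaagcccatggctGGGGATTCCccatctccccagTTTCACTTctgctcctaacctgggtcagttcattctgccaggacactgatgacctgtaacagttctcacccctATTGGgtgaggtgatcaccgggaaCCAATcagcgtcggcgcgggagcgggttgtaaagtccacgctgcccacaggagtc
H2-Q7: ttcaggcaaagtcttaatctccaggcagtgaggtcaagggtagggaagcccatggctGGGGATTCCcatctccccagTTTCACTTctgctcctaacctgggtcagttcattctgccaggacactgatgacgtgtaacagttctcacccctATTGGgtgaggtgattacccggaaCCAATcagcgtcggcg
In the 300-base windows of the table, annotated exons left none of the 250 bases before the start free in *H2-D1*, *Tap1*, and *Tapbp*. In *H2-T23* the longest exon-free run was 96 bases. These 4 windows are thus covered by exons in whole or in part, and they are included in the counts that follow. The interferon regulatory factor core was present in the windows of 6 of the 8 members and in 23.9% of all 32851 promoters. The kappaB letters were present in 4 of the 8, namely *H2-K1*, *H2-D1*, *H2-Q6*, and *H2-Q7*, and in 0.250% of all promoters. CCAAT was present in all 8 and in 37.4% of all promoters, and TGACGC in 2 (*H2-K1* and *H2-D1*) and in 7.40%. The letters TTCNNNGAA of a gamma-activated site were in none of the 8 and in 8.30% of all. These are matches of letters in a window and not measured binding sites.

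The libraries held 52084739 to 66631583 UMIs, and 5427 to 7498 barcodes per library had at least 2000 UMIs, with medians of 4841 to 6882. A UMI is a tag that lets each captured transcript be counted once, and CPM is the UMIs of a gene per 1000000 UMIs of a class. Any 2 libraries shared 51 to 77 of these barcodes. *Angpt2*, which encodes Ang2, had 73.3 CPM in EC-like cells of Ctrl and 1116 CPM in those of *EC-Ang2*, and with mIgG1 it had 53.6 CPM, with Ang2 Ab 316 CPM. Whether the transgene's transcript carries the counted 3′ end was not given in the sources used here. Clusters were named from marker genes, after the members and the pathway genes had been left out of the clustering, as arterial, capillary-arterial, capillary-venous, and venous EC-like, mural-like, T cell-like, monocyte/macrophage-like (macrophage-like hereafter), and microglia-like cells. The smallest class held 70 mural-like cells (*EC-Ang2*) and the largest 2489 macrophage-like cells (mIgG1).

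Several classes held transcripts of others. All 13 monocyte/macrophage markers were detected in microglia-like cells of every library, at a sum of 2414 CPM in Ctrl against 14129 (mIgG1), 9857 (Ang2 Ab), and 10050 CPM (*EC-Ang2*), so that the Ctrl microglia-like class differed in makeup from the other 3. Microglia-like values are therefore given also for the 86, 179, 642, and 51 cells whose own markers exceeded those of any other class, in which that sum was 1935 to 2416 CPM. All 7 EC markers were detected in mural-like cells, at 8672 to 11264 CPM, and the values of mural-like cells with at least 8 times more UMIs of mural than of EC markers (36, 28, 26, and 23 cells) stand beside those of the class. The Ctrl T cell-like class had 2598 CPM of the 10 microglia markers against 154 to 251 CPM in the other libraries. Free RNA, estimated from transcripts of the other sorted population, made up 2.66% to 7.05% of the UMIs in EC-like zones and up to 10.6% in mural-like cells.

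*B2m* (chr2:122147686-122153083), which every class I molecule needs, was highest in macrophage-like cells. Its level there was 10078 CPM with mIgG1 and 10582 CPM with Ang2 Ab, against 11896 CPM in Ctrl and 12876 CPM in *EC-Ang2* (11358 ± 1269, SD, n = 4 libraries). Microglia-like cells followed with 9792 ± 1323 CPM and T cell-like cells with 6926 ± 896 CPM. Capillary-venous EC-like cells had 4828 ± 1016 CPM, arterial 4663 ± 894, venous 4502 ± 683, capillary-arterial 3950 ± 882, and mural-like cells 3510 ± 1124 CPM. Immune classes stood above EC-like zones in all 4 libraries, whereas the order of neighbouring EC-like zones changed between libraries except for venous above capillary-arterial.

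The classical heavy chains had a similar order with a smaller range. *H2-K1* (chr17:33996017-34000347) was at 2216 ± 103 CPM in T cell-like, 2196 ± 210 in macrophage-like, and 1813 ± 567 in microglia-like cells, and lower in venous (1485 ± 266), capillary-venous (1343 ± 443), arterial (1145 ± 236), capillary-arterial EC-like (1050 ± 300), and mural-like cells (792 ± 261). *H2-D1* (chr17:35262730-35267499) was at 4414 ± 214 CPM in macrophage-like cells and at 1956 ± 663 in mural-like cells. Arterial, venous, and capillary-venous EC-like cells differed by less than their spread for *H2-D1*, at 2831 ± 500, 2800 ± 431, and 2777 ± 630 CPM.

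The Qa-2 chains were highest in T cell-like cells and varied most among EC-like zones. *H2-Q7* (chr17:35439155-35443773) had 641, 587, 576, and 646 CPM in T cell-like cells of mIgG1, Ang2 Ab, Ctrl, and *EC-Ang2*, and 379, 246, 179, and 402 CPM in venous EC-like cells. In capillary-arterial EC-like cells the same libraries had 200, 54.1, 54.1, and 123 CPM. T cell-like cells were above every other class in each library, and venous above capillary-arterial EC-like cells likewise. *H2-Q6* (chr17:35424850-35430055) ranged from 144 ± 4.83 CPM in T cell-like cells to 36.9 ± 26.7 in mural-like cells. Of the 90-base stretches in the last 500 bases of its transcripts, 26.9% also occur in other genes, against 4.73% for *H2-Q7*, 13.4% for *H2-T23*, and 0.151% for *H2-K1*, so that counts of the Qa-2 and Qa-1 chains are uncertain between these copies. *H2-T23* (chr17:36029773-36032855) differed least between classes among heavy chains, from 230 ± 26.1 CPM in microglia-like to 135 ± 41.4 CPM in mural-like cells.

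Of the loading genes, *Tap1* (chr17:34187553-34197225) was highest in immune classes. *Tap2* (chr17:34203527-34216321), its partner in the transporter, had its highest mean in T cell-like cells but its lowest in macrophage-like and microglia-like cells. T cell-like cells were above capillary-venous EC-like cells for *Tap2* in 2 of the 4 libraries. *Tap1* had 223 ± 77.9 CPM in macrophage-like, 208 ± 28.9 in microglia-like, 157 ± 56.1 in capillary-venous EC-like, and 75.1 ± 29.5 in capillary-arterial EC-like cells. *Tap2* had 198 ± 10.4 CPM in T cell-like, 188 ± 41.9 in capillary-venous EC-like, 178 ± 26.6 in mural-like, 133 ± 42.3 in macrophage-like, and 117 ± 13.6 in microglia-like cells. *Tapbp* (chr17:33915899-33929292) was highest in macrophage-like cells (491 ± 78.4 CPM) and lowest in mural-like cells (234 ± 56.3 CPM). *Nlrc5* (chr8:94434356-94527272) was scarce everywhere, from 19.6 ± 0.834 CPM in T cell-like cells to 4.37 ± 1.52 in capillary-arterial EC-like cells, where 6 to 14 UMIs were counted per library.

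**Figure D1:**
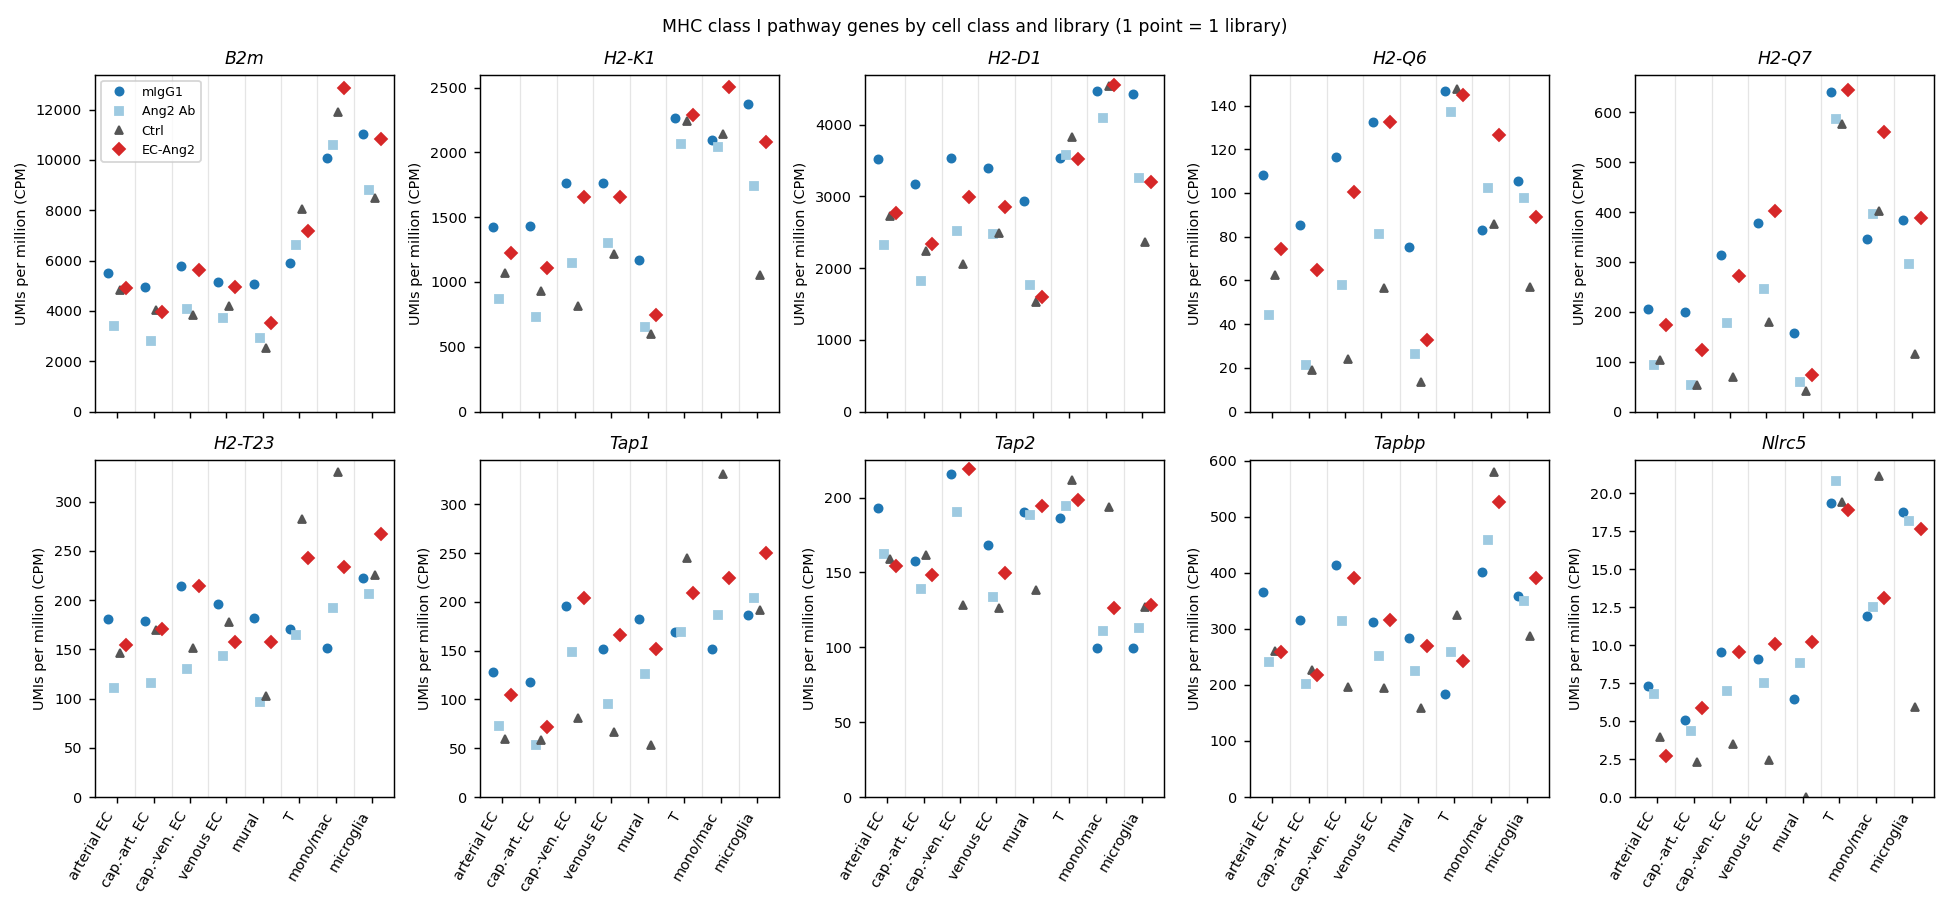
Levels of the 10 genes in CPM (y axis, linear, from 0) in 8 cell classes (x axis), with 1 point for each of the 4 libraries. In EC-like classes the mIgG1 points lie above those of Ang2 Ab for each gene shown, and T cell-like points of *H2-K1* and *H2-Q7* lie close together.

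Classes were compared over the 4 libraries with edgeR's quasi-likelihood test and the library as a block, and calls refer to a Benjamini-Hochberg adjusted p under 0.05 over all genes. With the block, these p-values measure how far the difference between classes varies over these 4 libraries, each of another condition. Any effect of condition that differs between classes is part of that spread. Since the labels do not tie libraries to animals, spread between animals is not measured. Venous EC-like cells had 5 of the 10 members higher than arterial EC-like cells, where 19.2% of all genes were called higher. The log2 differences were 1.24 ± 0.0942 (SE) for *H2-Q7* (edgeR adjusted p = 6.09e-07), 0.63 ± 0.137 for *H2-Q6* (0.00298), 0.55 ± 0.0715 for *H2-K1* (5.73e-05), 0.54 ± 0.0918 for *Tap1* (0.000494), and 0.36 ± 0.0699 for *H2-T23* (0.00125). *B2m* (0.13 ± 0.0669, adjusted p = 0.16) and *Tap2* (−0.04 ± 0.0721, adjusted p = 0.678) did not pass. Without the library block, 2 of the members passed, beside 12.5% of all genes.

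Capillary-venous EC-like cells had 6 members higher than capillary-arterial EC-like cells, beside 10.2% of all genes. In the blockade pair the capillary-arterial class held a cluster led by the capillary-venous markers *Angpt2* and *Scgb3a1*, as given below. *Tap1* differed by 1.10 ± 0.161 (edgeR adjusted p = 0.00134), *H2-Q7* by 1.02 ± 0.178 (0.00323), *Nlrc5* by 0.82 ± 0.219 (0.025), *H2-Q6* by 0.75 ± 0.152 (0.00689), *Tapbp* by 0.48 ± 0.145 (0.0435), and *B2m* by 0.36 ± 0.108 (0.041). This count was 3 without mIgG1 (beside 7.26% of all genes), without Ang2 Ab (7.04%), or without *EC-Ang2* (8.15%). It was 1 without clusters led by interferon-induced genes (5.68%), and 0 when each library was clustered alone (4.10%) or when no library block was used (3.60%).

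EC-like cells had 7 members higher than mural-like cells, beside 13.2% of all genes, led by *H2-Q7* (1.43 ± 0.138) and *H2-Q6* (1.15 ± 0.163), while the transporter genes *Tap1* (0.04 ± 0.108) and *Tap2* (0.00 ± 0.0801) gave no call. They had 9 members lower than microglia-like cells, beside 31.5% of all genes, among them *Nlrc5* (−1.50 ± 0.19), *B2m* (−1.40 ± 0.0914), and *Tap1* (−1.14 ± 0.177). *Tap2* was the exception, at 0.21 ± 0.125 (edgeR adjusted p = 0.172). Among cells whose own markers led, 8 members were lower than in microglia-like cells, beside 29.7% of all genes.

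Among immune cells, macrophage-like cells had *Tapbp* (0.73 ± 0.163), *H2-D1* (0.68 ± 0.171), and *B2m* (0.45 ± 0.139) higher than microglia-like cells, 3 members beside 17.1% of all genes. The count was 0 without Ang2 Ab (beside 7.48% of all genes) or without *EC-Ang2* (9.16%). It was 6 without mIgG1 (16.2%), 5 without Ctrl (17.5%), and 5 among cells whose own markers led (20.2%). T cell-like cells had 4 members lower than macrophage-like cells, beside 29% of all genes, namely *Tapbp* (−1.21 ± 0.104), *B2m* (−0.95 ± 0.0778), *H2-D1* (−0.52 ± 0.0777), and *Tap1* (−0.37 ± 0.124). *H2-Q7* (0.31 ± 0.127, edgeR adjusted p = 0.0725) and *Tap2* (0.39 ± 0.147, adjusted p = 0.0552) were on the other side without passing.

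**Figure D2:**
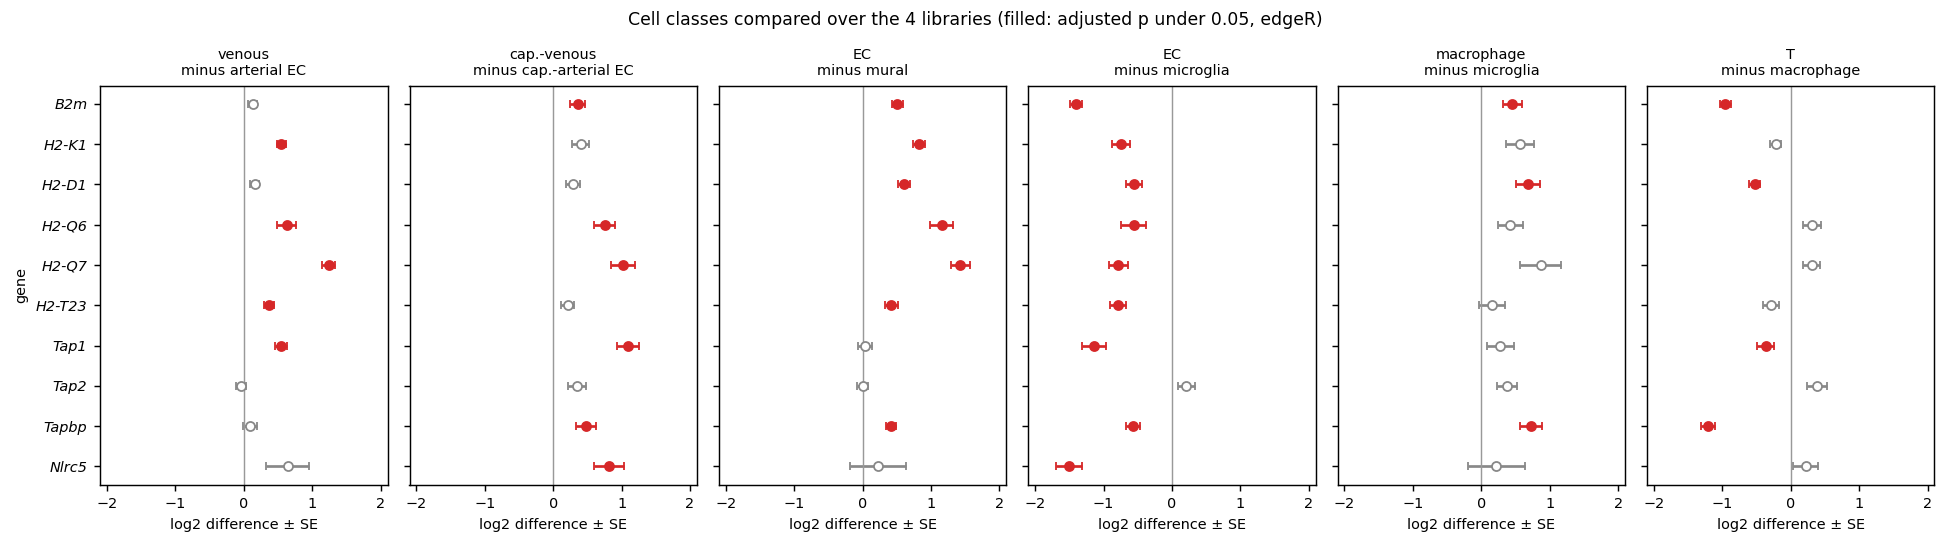
Log2 difference (x axis) of each of the 10 genes (y axis) between 2 cell classes in 6 comparisons, with SE bars over 4 libraries. Filled points passed the edgeR adjusted p of 0.05. *Tap2* passed in none of the 6, and 9 of the 10 genes were lower in EC-like than in microglia-like cells.

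Between the libraries of a pair there is no replicate, so no test was made. A gene was compared where at least 10% of the cells of 1 library had a UMI and the libraries together had 50 UMIs. A member that met the 10% in only 1 library was favoured to be higher there, though this share also depends on the UMIs per cell. Its direction is therefore no evidence. Counts without such members, a choice made after the values were seen, stand beside those with them. A ratio past 1.5-fold is counted beside the share of all genes that far, and the 95% intervals cover counting error only. That share was computed for the main settings only. Counts in selected cells or under an alternative therefore cannot be set against it. The study chose *Tap1*, *Tapbp*, *B2m*, and the heavy chains *H2-Q7*, *H2-K1*, *H2-Q6*, and *H2-D1* among its genes of opposite direction in capillary-venous ECs on these same samples, as well as *H2-K1* and *H2-Q7* in microglia, so that their direction is not independent evidence.

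After Ang2 blockade, the members were lower in EC-like cells of every zone. In capillary-venous EC-like cells *H2-K1* was at 1761 CPM with mIgG1 and at 1146 CPM with Ang2 Ab, a log2 ratio of −0.62 (−0.67 to −0.57). *B2m* had 5778 and 4074 CPM (−0.50, −0.53 to −0.48), and *H2-Q6* 116 and 57.7 CPM (−1.01, −1.22 to −0.81). *H2-T23* had 215 and 130 CPM (−0.72, −0.87 to −0.58). All 9 members compared were below 0 in each zone, and 4 of the 9 were past 1.5-fold in this zone, beside 1.97% of all genes.

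The count of members past that size differed by zone, and the order of the zones depended on the processing. In arterial EC-like cells 8 of 9 were past it, beside 2.51% of all genes, with *H2-Q6* at −1.29 (108 and 44.3 CPM), *H2-Q7* at −1.14, *Tap1* at −0.82, *H2-K1* at −0.72, and *B2m* at −0.70. In capillary-arterial EC-like cells 8 of 9 were, beside 2.65% of all genes. The name of this class is uncertain. Of its cells, 312 of 622 (mIgG1) and 360 of 730 (Ang2 Ab) lay in a cluster led by the capillary-venous markers *Angpt2* and *Scgb3a1*. Capillary-venous markers summed to 2321 CPM with mIgG1 and 7083 with Ang2 Ab in the class, against 2667 and 3167 CPM of its own. These markers include *Angpt2*, which itself differed between the 2 libraries in EC-like cells, as given above. The summed members differed by −0.84 both in that cluster and in the other one of the class. Here *H2-Q6*, whose kappaB and interferon regulatory factor letters are marked above, went from 85.3 to 21.2 CPM (−2.01, −2.47 to −1.58), a gene that met the limit of 10% of cells only with mIgG1 (24.9% and 6.58% of cells). The other 7 met it in both libraries, and among them *H2-Q7* went from 200 to 54.1 CPM (−1.88, −2.16 to −1.61), and *Tap1* from 118 to 52.9 CPM (−1.15, −1.45 to −0.86). Free RNA accounted for up to 35.4% of a member's level in this class of Ang2 Ab, which was that of *H2-Q7*. In venous EC-like cells 3 of 9 passed, beside 3.07% of all genes, *H2-Q6* (−0.71), *Tap1* (−0.67), and *H2-Q7* (−0.62). The makeup of this class also differed, since its cluster led by *Ubd* and *Selp* held 111 of 452 cells with mIgG1 and 78 of 463 with Ang2 Ab. The summed members differed by −0.06 in that cluster, and by −0.62 and −0.79 in those led by *Cxcl1* and *Tmsb10*. The part of makeup in the values was not tested. Under single alternatives the counts were 5 in arterial (cycling cells or list genes kept), 5 in capillary-arterial (a finer clustering), 8 in capillary-venous (no interferon-led clusters), and 8 in venous EC-like cells (each library clustered alone). The shares of all genes under these alternatives were not computed.

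Over all EC-like zones together, a sum formed after the zones had been seen, 5 of 9 members were past 1.5-fold lower, beside 1.43% of all genes. *Tap2* had the smallest difference of the 9, from 187 to 161 CPM (−0.22, −0.30 to −0.14), and its partner *Tap1* went from 156 to 102 CPM (−0.62, −0.71 to −0.52). *Nlrc5* was below the limit for comparison in every zone, with 8.17 and 6.55 CPM over all EC-like cells (−0.32, −0.73 to 0.09).

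Mural-like cells had 6 of 9 members past 1.5-fold lower, beside 4.49% of all genes, with *B2m* at 5075 and 2917 CPM (−0.80) and *H2-K1* at 1173 and 653 CPM (−0.84). These cells carried EC transcripts, and free RNA made up to 50.4% of a member's level in Ang2 Ab. In mural-like cells poor in EC transcripts *B2m* was at 3780 and 3010 CPM (−0.33, −0.54 to −0.11) and *H2-K1* at 368 and 560 CPM (0.61, 0.01 to 1.21), so that of the members with 50 UMIs 1 was past 1.5-fold, and it was higher in Ang2 Ab. The share of all genes past that size was not computed for the cells poor in EC transcripts. These cells held 1455 CPM of macrophage markers with mIgG1 and 5111 CPM with Ang2 Ab, and the part of this in the values was not tested.

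With all their cells, the 3 immune classes had no member past 1.5-fold lower, an exception being microglia-like cells once filtered on markers. In T cell-like cells 0 members were past 1.5-fold lower, beside 4.34% of all genes, and the 9 compared lay between −0.13 (*H2-K1* and *H2-Q7*) and 0.50 (*Tapbp*). In macrophage-like cells 0 were, beside 1.98% of all genes, with *H2-D1* lowest (−0.12) and *H2-T23* highest, from 151 to 192 CPM (0.35, 0.28 to 0.42). In microglia-like cells 0 of 10 were, beside 3.45% of all genes, with *H2-K1* and *H2-D1* lowest (both −0.45) and *Tap2* highest (0.18). Among microglia-like cells whose own markers led, 4 were lower past that size, *H2-K1* (−0.74), *H2-Q7* (−0.70), *H2-D1* (−0.65), and *B2m*, from 13177 to 8700 CPM (−0.60, −0.64 to −0.56). The share of all genes that far was not computed for these fewer cells, so the count cannot be set against it.

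In the overexpression pair, members were higher in *EC-Ang2* than in Ctrl in capillary-venous and venous EC-like cells. In the capillary-venous zone *H2-Q7* had 68.4 CPM in Ctrl and 272 CPM in *EC-Ang2* (1.99, 1.82 to 2.16) and *H2-Q6* 23.8 and 100.2 CPM (2.07, 1.79 to 2.36). *Tap1* had 81.5 and 204 CPM (1.32, 1.16 to 1.49), and *Tap2* 129 and 219 CPM (0.77, 0.63 to 0.91). *H2-K1* had 815 and 1652 CPM (1.02) and *Tapbp* 195 and 391 CPM (1.00). These 6 of 9 members were past 1.5-fold, beside 6.42% of all genes, but *H2-Q6* met the limit of 10% of cells only in *EC-Ang2* (8.91% and 32.99% of cells), which leaves 5 of 8 that met it in both libraries. The remaining *B2m* (0.55), *H2-D1* (0.54), and *H2-T23* (0.49) were above 0 without reaching that size.

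The capillary-venous class differed in marker levels between libraries, with 1898 CPM of the 7 venous EC markers in Ctrl and 4526 CPM in *EC-Ang2*, against 5019 CPM with mIgG1 and 4758 CPM with Ang2 Ab. Its 6 capillary-venous markers summed to 6799 CPM in Ctrl and 3992 in *EC-Ang2*, with 2712 for mIgG1 and 7312 for Ang2 Ab. With mIgG1 and in *EC-Ang2* the venous sum was the larger, so the class name is uncertain. *Angpt2*, which is among these markers, had 128 CPM in Ctrl, 1623 in *EC-Ang2*, 92.3 with mIgG1, and 528 with Ang2 Ab. The study lists the venous markers *Ackr1*, *Vcam1*, and *Vwf* among its genes of opposite direction in capillary-venous ECs. Cell makeup and changes within cells cannot be told apart here, and their part in the members' values was not tested. When each library was clustered alone, 2 members were past 1.5-fold, *H2-Q6* (1.85) and *H2-Q7* (1.21), while *B2m* stood at 0.05 and *Tap1* turned to −0.28. That clustering put 1834 Ctrl and 368 *EC-Ang2* cells in this class, against 1032 and 779 when the pair was aligned. In the other EC-like zones, too, it named fewer *EC-Ang2* cells. All EC-like cells here means the 4 zones together, without the EC clusters that got no zone name. Those clusters held 431 and 142 cells in Ctrl and 244 and 79 in *EC-Ang2*. Over all EC-like cells so defined, 5 of 9 members were past 1.5-fold higher, beside 5.59% of all genes, namely *H2-Q7* (1.54, 1.46 to 1.62), *H2-Q6* (1.40), *Tap1* (1.247, 1.14 to 1.35), *H2-K1* (0.63), and *Tapbp* (0.60). This count was 3 when libraries were clustered alone, with *Tap1* at 1.04 and *H2-K1* at 0.58, and also 3 with the mean of CPM over cells or without interferon-led clusters.

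In venous EC-like cells 5 members were past 1.5-fold higher, beside 6.4% of all genes, of which 4 met the limit of 10% of cells in both libraries. *Tap1* went from 66.2 to 166 CPM (1.33, 1.13 to 1.53), *H2-Q7* from 179 to 402 CPM (1.17), and *Tapbp* from 195 to 315 CPM (0.70). *Nlrc5* rested on 9 UMIs in Ctrl and 65 in *EC-Ang2*, with 2.42 and 10.04 CPM (2.05, 1.04 to 3.24), and met that limit only in *EC-Ang2* (1.98% and 11.8% of cells). *H2-T23* was on the other side, with 177 and 158 CPM (−0.17, −0.31 to −0.03). The class had a different makeup in each library, since its cluster led by *Ubd* and *Cxcl9*, with summed members of 13003 CPM in Ctrl and 15352 CPM in *EC-Ang2*, held 35 of 454 cells in Ctrl and 115 of 509 in *EC-Ang2*. Within that cluster the sum differed by 0.24, and within the other venous cluster by 0.12.

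Arterial EC-like cells had 2 members past 1.5-fold higher, beside 5.26% of all genes, *Tap1* (59.3 and 105 CPM, 0.82) and *H2-Q7* (103 and 173 CPM, 0.74), and capillary-arterial EC-like cells had 2, beside 6.86% of all genes, *H2-Q6* (1.77) and *H2-Q7* (1.19). *H2-Q6* met the limit of 10% of cells only in *EC-Ang2* there (6.70% and 14.8% of cells), which leaves 1. Both capillary-arterial values turned when libraries were clustered alone (−0.12 and −0.02), and the arterial count was 0 under 5 of the alternatives. *B2m* lay at 0.02 and −0.03 in these zones.

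Mural-like cells had 4 members past 1.5-fold higher, beside 7.78% of all genes, from *Tap1* (53.6 and 151 CPM, 1.499) to *H2-T23* (0.61), and 1 (*B2m*, 1.249) when poor in EC transcripts. T cell-like cells had 0, beside 5.16% of all genes, with *Tapbp* lowest (−0.42). Macrophage-like cells had 0 past 1.5-fold higher, beside 3.2% of all genes, and 2 past it lower, beside 7.09%. These were *Nlrc5*, at 21.1 CPM in Ctrl and 13.1 CPM in *EC-Ang2* (−0.69, −0.99 to −0.39), and *Tap2*, at 194 and 127 CPM (−0.62, −0.71 to −0.52). *Tap1* (−0.57) and *H2-T23* (−0.50) pointed the same way there, and *H2-Q6* (0.56) and *H2-Q7* (0.48) the other. The makeup of the macrophage-like class differed between the libraries, as given below.

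Microglia-like cells had 3 members past 1.5-fold higher in *EC-Ang2*, beside 9.93% of all genes, *H2-Q7* (116 and 388 CPM, 1.74), *H2-K1* (1056 and 2080 CPM, 0.98), and *H2-Q6* (0.65). The *EC-Ang2* class held more macrophage transcripts than that of Ctrl, as given above. With only cells whose own markers led, *H2-Q7* was at 112 and 307 CPM (1.45, 1.17 to 1.73), *H2-K1* at 1030 and 1858 CPM (0.85, 0.74 to 0.96), and *H2-Q6* at 0.13 (−0.50 to 0.70).

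**Figure D3:**
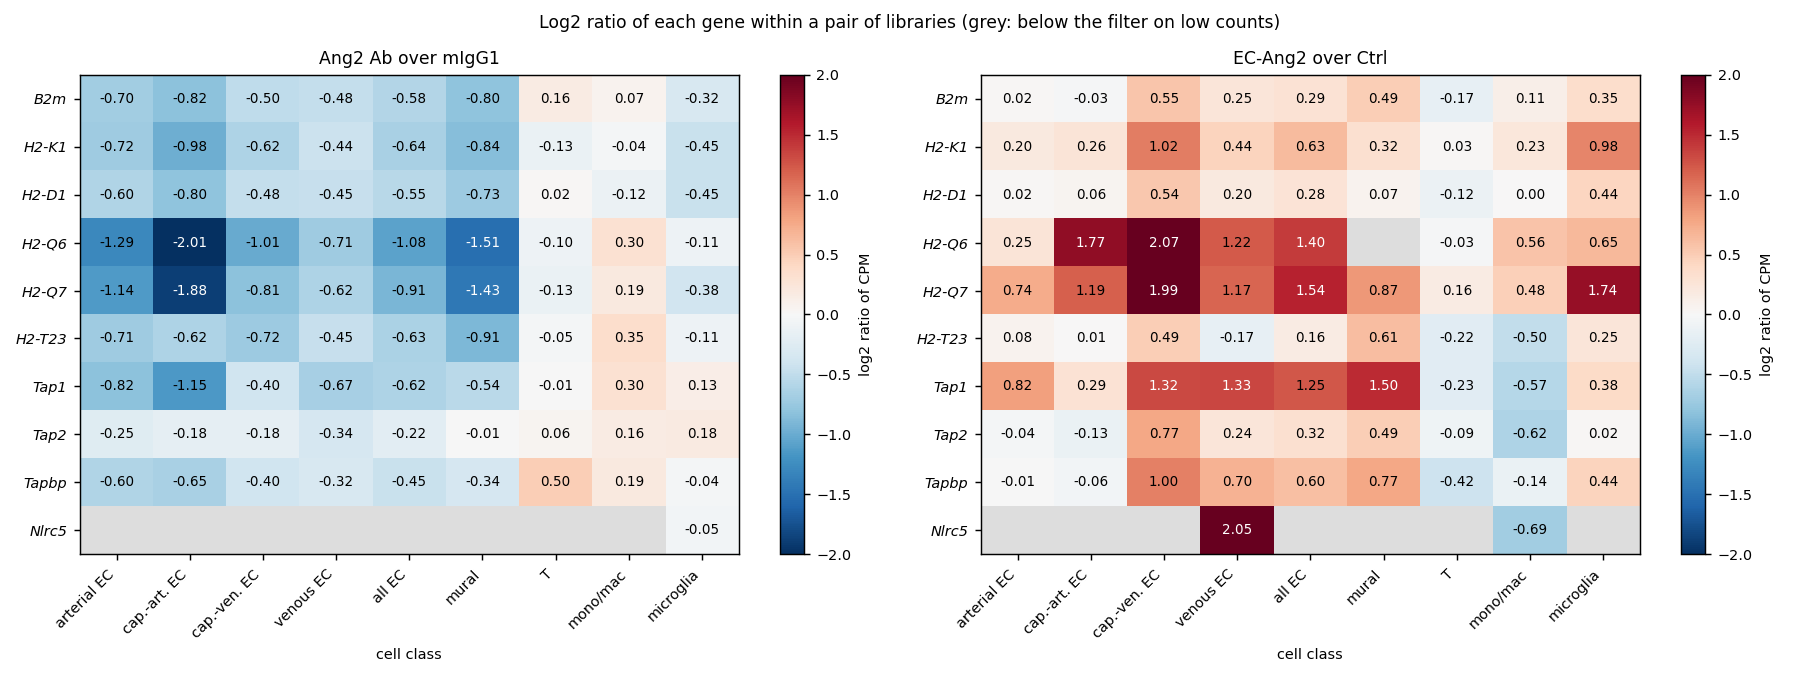
Log2 ratio of CPM of each gene (y axis) in each cell class (x axis), Ang2 Ab over mIgG1 on the left and *EC-Ang2* over Ctrl on the right, with the value in each cell and grey for genes too low to compare. The left panel is below 0 for all 9 genes compared in every EC-like zone. In the right panel *H2-Q6*, *H2-Q7*, and *Tap1* have the highest values over all EC-like cells.

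The 2 control libraries, Ctrl and mIgG1, give the only view of how far libraries differ without a change in Ang2. They also differ in substrain, age, day, pertussis toxin dose, and isotype antibody. Because they were clustered apart, a class need not hold the same cells in both. Clusters led by interferon-induced genes held 338 of 783 capillary-venous EC-like cells with mIgG1 and 127 of 1032 in Ctrl. Venous EC markers summed to 5019 and 1898 CPM in that class. The 10 members had a median log2 ratio of Ctrl over mIgG1 of −1.10 in capillary-venous, −0.61 in venous, −0.56 in capillary-arterial, and −0.45 in arterial EC-like cells, and of −0.99 in mural-like, −0.63 in microglia-like, 0.15 in T cell-like, and 0.39 in macrophage-like cells. Over all genes these medians lay between 0.01 and 0.11. In capillary-venous EC-like cells the control libraries, whose classes differed in marker levels and in interferon-led clusters, were farther apart than those of the blockade pair. The 9 members compared had a median of −0.50 in the blockade pair and of 1.00 in the overexpression pair. The part of makeup in these differences was not tested. Levels of *B2m* and *Tap2* with mIgG1 and in *EC-Ang2* were close to each other there, with 5778 and 5625 CPM of *B2m* and 216 and 219 CPM of *Tap2*. *H2-K1* and *H2-Q6* were lower in *EC-Ang2* than with mIgG1, as their levels above show.

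Within the EC-like zones, the 11 clusters of the blockade pair all had a lower sum of the 10 members in Ang2 Ab. The difference ranged from −0.89 in an arterial EC-like cluster led by *Glul* (12163 and 6542 CPM) to −0.06 in a venous EC-like cluster led by *Ubd* and *Selp* (13356 and 12830 CPM), in which 5 members were lower and 5 higher. In the other 10 clusters at least 8 of the 10 members were lower. Among these, the cluster led by *Tmsb10* and named venous held 26 cells with mIgG1 and 12 with Ang2 Ab. It had 0 venous markers among its 10 leading genes. The cluster led by *Scgb3a1* had 2 capillary-venous markers there and 2 of another class, so that these names are uncertain. The 2 capillary-venous clusters with at least 3 interferon-induced genes among their 10 leading genes had sums of 13322 and 15280 CPM in mIgG1 and differed by −0.22 and −0.41, and the cluster of that zone led by *Scgb3a1* by −0.86 (10951 and 6020 CPM). Of the 2 interferon-led clusters, the first, led by *Adm*, had 1 capillary-venous marker among those leading genes, and the second, led by *Rsad2*, had 0. When interferon-led clusters were left out, a choice made after the clusters were seen, the count of members past 1.5-fold lower in capillary-venous EC-like cells went from 4 to 8.

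In the overexpression pair the sum was higher in *EC-Ang2* in 9 of 11 clusters. In the 4 clusters named capillary-venous all 10 members were higher, and the sums differed by 0.38 to 0.69. All 6 markers of that zone were detected in each of these clusters. Among the 10 leading genes, the clusters led by *Cxcl10* and by *Maged2* had 0 of these markers. Those led by *Scgb3a1* and by *Adm* had 1 each, so that these names are uncertain. The cluster led by *Cxcl10*, *Ccl5*, and *Gbp2* had 10887 CPM in Ctrl and 17294 CPM in *EC-Ang2* (0.67), the latter being the highest sum among the 11 clusters in *EC-Ang2*, while in Ctrl the clusters led by *Ubd* (13003 CPM) and by *Mgp* and *Gkn3* (12700 CPM) were higher. The 2 clusters with a lower sum were arterial EC-like, led by *Prss23* (−0.07) and by *Mgp* and *Gkn3* (−0.22). Clusters do not correspond between the pairs, which were clustered apart.

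**Figure D4:**
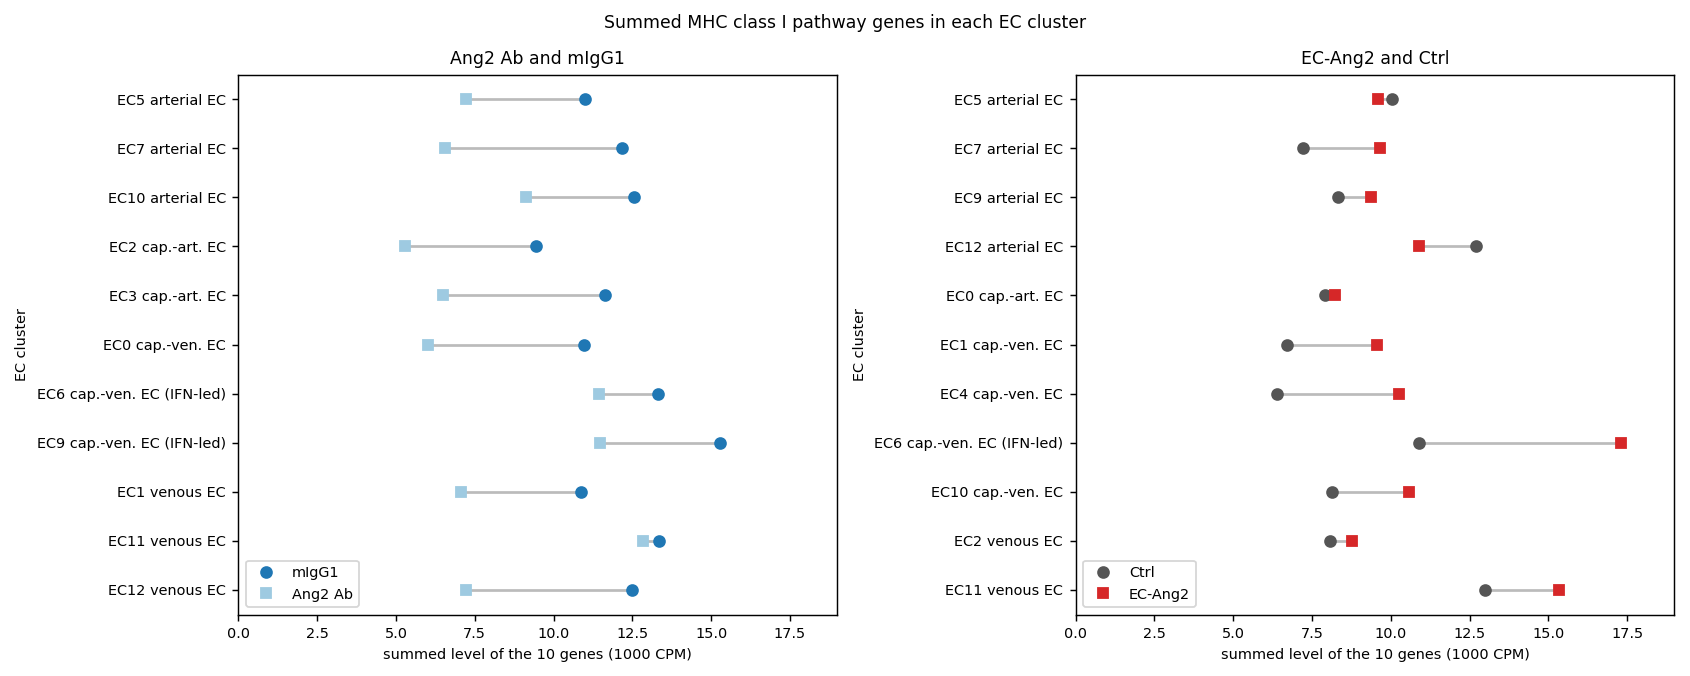
Summed level of the 10 genes (x axis, in units of 1000 CPM, linear from 0) in each EC-like cluster (y axis), with 1 point per library and a line joining the pair. All 11 Ang2 Ab points lie left of mIgG1, and 9 of 11 *EC-Ang2* points lie right of Ctrl.

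Per capillary-venous EC-like cell, the summed members were lower with Ang2 Ab and higher in *EC-Ang2* at low, median, and high cells, by unlike amounts. With each cell thinned to 2000 UMIs, the median capillary-venous EC-like cell held 22 UMIs of the 10 members with mIgG1 and 13 with Ang2 Ab, against 13 from Ctrl and 18 from *EC-Ang2*. The 10th percentile was 13, 6, 7, and 9 and the 90th 37, 28, 23, and 38 in the same order. Macrophage-like cells had medians of 34, 35, 39, and 42. *H2-Q7* had a UMI in 39.2% of thinned capillary-venous EC-like cells with mIgG1 (64.0% before thinning) and 18.4% with Ang2 Ab (31.3%), and in 12.2% (22.2%) of those from Ctrl and 28.1% (51.1%) of those from *EC-Ang2*, where free RNA would give 4.31%, 3.20%, 1.35%, and 2.69%. *Nlrc5* had one in 0.484% to 1.79%.

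The rest of the pathway was read in capillary-venous EC-like cells. There, 1.97% of all genes were past 1.5-fold lower after blockade. With overexpression 6.42% were past it higher and 5.16% lower. Among other heavy chains, *H2-T22*, a nonclassical chain, had 345 and 227 CPM in the blockade pair (−0.60) and 155 and 330 CPM in the overexpression pair (1.09), and *H2-Q4* had −0.52 and 0.89. *Fcgrt*, the neonatal Fc receptor, was at −0.12 and −0.68, and *Hfe*, a regulator of iron uptake, at −0.42 and −0.20. In this list 1 of 5 genes compared was past 1.5-fold lower after blockade (median −0.42), and 2 of 5 were higher and 1 lower with overexpression (median 0.57). The study had chosen *H2-T22* on these samples, as it had *Psmb8*, *Psmb9*, *Irgm1*, and *Gbp2* named next.

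Peptide supply differed by proteasome type. *Psmb9*, a subunit of the immunoproteasome, had 242 and 145 CPM in the blockade pair (−0.73, −0.87 to −0.60) and 93.6 and 233 CPM in the overexpression pair (1.32, 1.17 to 1.47), and *Psmb8* had 1.06 in the latter. The chaperones *Canx* (0.11 and 0.15) and *Hspa5* (0.21 and 0.29) differed little, and *Tapbpl* was at −0.37 in the blockade pair. Of the 11 genes compared, 1 was past 1.5-fold lower after blockade and 7 were higher with overexpression. Of the 14 genes of the constitutive proteasome 0 passed 1.5-fold in either pair, with medians of 0.07 and 0.13, from *Psmb1* (−0.09) to *Psmb5* (0.24) after blockade and from *Psma6* (−0.11) to *Psmb4* (0.39) with overexpression.

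Among genes that act on class I transcription, *Irf1*, an interferon-induced activator, had 98.6 and 163 CPM in the overexpression pair (0.72, 0.57 to 0.88). *Rfxank*, a subunit of the RFX complex, had 19.1 and 12.1 CPM in the blockade pair (−0.66, −1.15 to −0.18). *Rfxap*, of the same complex, was at 0.35 after blockade and −0.25 with overexpression, and *Rela*, a subunit of NF-kappaB, was at −0.26 with overexpression.

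The interferon response was read from a list of interferon-gamma and one of type I interferon genes. After blockade 4 of 16 interferon-gamma genes were past 1.5-fold lower (median −0.41), led by the chemokine *Cxcl9* (128 and 64.9 CPM, −0.98) and the immunity-related GTPase *Irgm1* (−0.73), while *Cd274*, which encodes PD-L1, was at 0.45 and *Cxcl10* at 0.11. With overexpression 12 of 17 were higher (median 1.18), led by *Cxcl10* (89.0 and 471 CPM, 2.41) and *Gbp2* (219 and 1012 CPM, 2.21), and the receptor-side genes *Jak1* (−0.08) and *Ifngr1* (0.10) were lowest. Of the type I list, 0 of 14 were past 1.5-fold lower after blockade (median −0.04, from *Ifnar1* at −0.52 to *Oasl1* at 0.37) and 3 of 13 were higher with overexpression (median 0.26, from *Ifit1* at −0.31 to *Oasl1* at 0.88). Over all genes compared in this zone the medians were 0.03 after blockade and −0.02 with overexpression.

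In macrophage-like cells the medians of these lists had the opposite sign. After blockade 10 of 14 type I genes were past 1.5-fold higher (median 1.04), beside 3.66% of all genes in that class. With overexpression 8 of 15 were lower (median −0.69), beside 7.09% of all genes. Of the interferon-gamma list, beside the same shares, 6 of 16 were higher after blockade (median 0.34) and 12 of 18 lower with overexpression (median −0.71). The members in that class had medians of 0.19 and −0.07. The class pooled clusters whose shares of its cells differed between libraries. The cluster led by *Plac8*, with *Isg15* and *Rsad2* among its leading genes, held 387 of 2489 cells with mIgG1 and 460 of 2275 with Ang2 Ab. In the overexpression pair the cluster led by *Ccl6* and *Spp1* held 193 of 931 cells in Ctrl and 576 of 1700 in *EC-Ang2*. The part of this makeup in the values was not tested.

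MHC class II genes were compared as a neighbouring pathway. In capillary-venous EC-like cells 3 of 7 were past 1.5-fold lower after blockade (median −0.58), with the peptide exchange chains *H2-DMa* (26.3 and 16.2 CPM, −0.70) and *H2-DMb1* (−0.67) lowest and *Ctss* (−0.31) highest. With overexpression 1 of 5 was higher, the invariant chain *Cd74* (92.2 and 151 CPM, 0.71), and *Ctss* was at −0.41. Free RNA made up 2.73% (Ctrl) to 6.55% (mIgG1) of the UMIs in these EC-like cells. Its part in the class II levels was not estimated. Of the receptors of class I and *Ifng*, none of the 8 reached the limit for comparison in these cells.

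**Figure D5:**
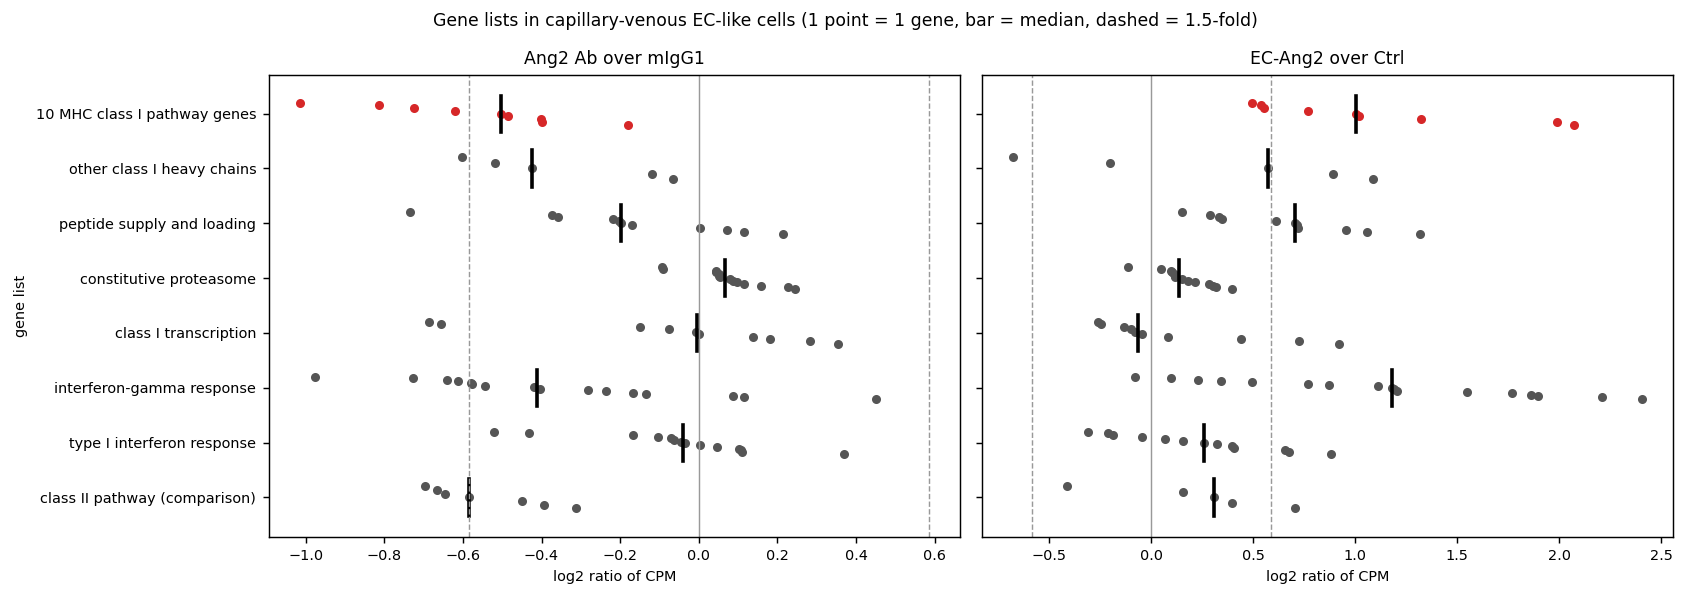
Log2 ratio of CPM (x axis) in capillary-venous EC-like cells for the genes of 8 lists (y axis), Ang2 Ab over mIgG1 on the left and *EC-Ang2* over Ctrl on the right, with 1 point per gene, a bar at the median, and dashed lines at 1.5-fold. The 14 constitutive proteasome genes lie within the dashed lines in both panels, and 12 interferon-gamma response genes lie beyond the right line in the right panel.

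Across the 32 combinations of class and library, 9 of the members varied together and *Tap2* apart from them. As a description, without a test and with points that share libraries and depth, each member's log2(CPM + 10) had a Pearson's r with the mean of the other 9 of 0.93 for *H2-K1*, 0.90 for *H2-Q7*, 0.88 for *H2-D1*, 0.87 for *Tap1*, 0.86 for *H2-Q6*, 0.83 for *B2m*, 0.81 for *Nlrc5*, 0.79 for *H2-T23*, 0.72 for *Tapbp*, and 0.02 for *Tap2*. Of 6067 genes compared, members and listed genes included, those outside the members and lists that were most like the mean of the members were *Zbp1* (r = 0.88), *Dtx3l* (0.85), *Cmc1* (0.84), *Prelid1* (0.83), *Lman2* (0.83), *AW112010* (0.83), *Bak1* (0.83), *Ccl5* (0.82), *Rpl36al* (0.81), and *Aprt* (0.81).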

How the data were processed

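Spinal cord cells were profiled as 10x 3′ single-cell libraries, 1 per condition. The deposited matrices hold UMI counts per gene and barcode, and the submitters' processing notes name Cell Ranger 2.1.1, Seurat 2.3.4, and mm10. The authors' cell annotation was not used here.

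From these counts, barcodes with at least 2000 UMIs and at most 10% mitochondrial UMIs were kept. Doublets were removed by Scrublet score (scanpy 1.11.5) at 0.8% per 1000 barcodes, and cells with at least 3 cycling genes were left out, which kept 5032 (*EC-Ang2*) to 6819 (Ang2 Ab) cells per library. Each pair was aligned by canonical correlation (2000 variable genes without the members and listed genes, 20 vectors, 20 neighbours) and clustered (leidenalg 0.10.2, resolution 1), and clusters were named from markers. Between 323 and 573 cells per library stayed unnamed. Counts were summed per class and library, since cells are not replicates. Classes were compared with edgeR 4.0.16 in R 4.3.3 (TMM factors, filterByExpr, quasi-likelihood test, library as block, Benjamini-Hochberg 0.05), with DESeq2 1.42.0 as an alternative. Ratios between libraries have exact 95% binomial and levels exact Poisson intervals. Free RNA was estimated from barcodes of 10 to 100 UMIs. Of these steps, the edgeR comparison of classes was tested on simulated counts. Python 3.11.15 with numpy 2.4.6 and scipy 1.17.1 was used.

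The text names all 10 members, the 2 genes of each list with the highest and the 2 with the lowest ratio in capillary-venous EC-like cells of each pair, or fewer of these, and the 10 genes most like the members. A minimum of 50 UMIs was applied to both libraries of a pair together. The members and lists were chosen with earlier results of these data known. Alternatives changed the filters, clustering, fold, summing, and fit, and left out each library in turn. One listed gene of class I transcription is not reported here, nor are the counts of that list.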

Additional observations from a re-analysis of the deposited data

Results flagged for a closer look

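With Ang2 overexpression, a pair of members pointed in opposite directions in different classes. *Tap2*, a subunit of the peptide transporter, had a log2 ratio of *EC-Ang2* over Ctrl of 0.77 in capillary-venous EC-like cells, while that in macrophage-like cells was −0.62. *Nlrc5*, the class I transactivator, had 2.05 in venous EC-like cells and −0.69 in macrophage-like cells. The first of these values rests on 9 UMIs in Ctrl and met the limit of 10% of cells only in *EC-Ang2* (1.98% and 11.8% of cells). The limit favoured that direction, which is therefore no evidence. With 1 library per condition the difference between classes was not tested.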

How the results depend on the processing

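Of the recomputed counts of members past 1.5-fold, 238 stayed within 1.5 times the value given above and 43 did not. The share of all genes past 1.5-fold was not recomputed for these alternatives. At a fold of 2 the counts after blockade were 2 (arterial), 3 (capillary-arterial), 1 (capillary-venous), 0 (venous), 1 (all EC-like), and 2 (mural-like), and with overexpression 0 (arterial), 3 (all EC-like), 1 (mural-like), 0 (macrophage-like), and 1 (microglia-like). The share of all genes past a fold of 2 was not computed, so these counts cannot be set against it. At a lower limit, a ratio of 5 to 4, 8 members were lower after blockade in capillary-venous, venous, and all EC-like cells (beside 7.72%, 11.4%, and 5.64% of all genes) and 3 in microglia-like cells (11.0%), while 1 was higher in T cell-like (18.5%) and 1 in macrophage-like cells (10.7%). With overexpression 1 was lower in T cell-like cells (23.1%) and 7 were higher in microglia-like cells (20.5%). Macrophage-like cells had 6, of which 4 were lower (17.4%) and 2 higher (9.65%). With cycling cells kept, arterial counts were 5 and 0, and *Tap2* in EC against mural was −0.034. Capillary-venous against capillary-arterial then gave 3 calls (beside 8.49% of all genes) and macrophage against microglia 6 (20.4%). With list genes kept for clustering, the arterial count after blockade was 5 and *Tap2* in venous against arterial 0.095, and the capillary-arterial class of the overexpression pair held no cells in either library and has no value. At a Leiden resolution of 2, the capillary-arterial count after blockade was 5. Capillary-venous against capillary-arterial gave 1 call at that resolution (beside 4.72% of all genes), with *H2-T23* at −0.088 and *Nlrc5* at −0.41. With each library clustered alone, counts were 8 (venous, blockade), 1 (arterial), 0 (capillary-arterial), 2 (capillary-venous), and 3 (all EC-like, overexpression). Capillary-venous against capillary-arterial then gave 0 calls (beside 4.10% of all genes). T cell against macrophage gave 8, of which 5 were lower (31.3%) and 3 higher (29.5%). In that clustering *H2-Q6* and *H2-Q7* were at −0.12 and −0.017 in capillary-arterial and *Tap1* at −0.28 in capillary-venous EC-like cells with overexpression, and *Tap1* and *Tap2* at −0.048 and −0.036 in EC against mural. With the mean of CPM over cells, counts were 5 (venous, blockade), 0 (arterial), 0 (macrophage-like), and 3 (all EC-like). At a minimum of 1000 UMIs the arterial count with overexpression was 0 and *Tap1* in EC against mural −0.0086. At 3000 UMIs they were 0 and −0.020, *Tap2* was at −0.027, and capillary-venous against capillary-arterial gave 2 calls (beside 1.92% of all genes). Without doublet removal 1 macrophage-like member was past 1.5-fold, and EC against mural had *Tap1* at −0.015 and *Nlrc5* at −0.092. Without a filter on low counts macrophage against microglia gave 6 calls (beside 12.1% of all genes). No paired analysis was possible because the labels carry no replicate numbers that would pair conditions, while class comparisons were blocked by library. Without the library block, calls were 2 (venous against arterial), 0 (capillary-venous against capillary-arterial), and 2 (EC against mural). The shares of all genes beside them were 12.5%, 3.60%, and 7.35%.

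Leaving out 1 library gave 3 to 8 calls for capillary-venous against capillary-arterial (beside 7.04% to 8.15% of all genes). For macrophage against microglia it gave 0 to 6 (7.48% to 17.5%). Without *EC-Ang2*, *Tapbp* in venous against arterial was −0.040 (up to 0.20 without another library) and *Tap1* in EC against mural −0.032. Without Ctrl, EC against mural had *Tap1* at −0.071, *Tap2* at −0.042, and *Nlrc5* at −0.029 (up to 0.14, 0.063, and 0.54 without another library), and macrophage against microglia had *H2-T23* at −0.064 and *Nlrc5* at −0.35 (up to 0.37 and 0.57). Without mIgG1, *Tap2* in EC against mural was −0.017. The alternatives named next were chosen after seeing the data. Over members that met the limit of 10% of cells in both libraries, the capillary-arterial count with overexpression was 1. Without interferon-led clusters, counts were 8 (capillary-venous, blockade) and 3 (all EC-like, overexpression). Capillary-venous against capillary-arterial then gave 1 call (beside 5.68% of all genes) with *H2-T23* at −0.058 and *Tap2* at −0.033. EC against mural had *Tap1* at −0.26 and *Tap2* at −0.14. Without cells whose markers pointed to another class, counts after blockade were 3 (mural-like) and 4 (microglia-like), and *Tap1* in EC against mural was −0.056. Macrophage against microglia then gave 5 calls (beside 20.2% of all genes). T cell against macrophage gave 7, of which 5 were lower (31.9%) and 2 higher (29.1%). In mural-like cells poor in EC transcripts the counts were 1 and 1, with *H2-K1* at 0.61 and *H2-Q6* and *H2-Q7* both at 1.26 after blockade and *H2-Q7* at −0.13 with overexpression, the Qa-2 values resting on 1 to 4 UMIs per library. Apart from the alternative's own construction, the cause of these changes was not tested. Depth limited *Nlrc5* most, which was too low to compare in EC-like zones other than the venous zone with overexpression.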

Other observations

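Dendritic-like cells, which are no part of the 8 classes above, had the Qa-2 chains higher in *EC-Ang2* than in Ctrl. *H2-Q7* had 290 and 635 CPM there (log2 ratio 1.13, 0.94 to 1.32) and *H2-Q6* 90.2 and 202 CPM (1.16, 0.83 to 1.501), while *B2m* was at 0.29. Of 9 members compared, 2 were past 1.5-fold higher, beside 5.41% of all genes. In the blockade pair 1 of 10 members was past 1.5-fold higher in these cells, beside 7.36% of all genes. It was *Nlrc5*, with 21 UMIs with mIgG1 and 36 with Ang2 Ab (0.84, 0.03 to 1.69), and *Tap1* was at 0.38.

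In granulocyte-like cells *H2-Q6* was on the other side with overexpression, with 86 UMIs in Ctrl and 38 in *EC-Ang2* (−0.82), and *Nlrc5* was at 0.91. Each of these met the limit of 10% of cells only in the library where it was higher, so that its direction is no evidence. In these cells 1 of 10 members compared was past 1.5-fold lower and 1 higher, beside 13.7% and 12.5% of all genes. After blockade *Tap2* was at 0.60 and *Tap1* at 0.56. Of 9 members compared then, 1 was past 1.5-fold higher, beside 11.0% of all genes. Free RNA made up 5.37% to 15.1% of UMIs in granulocyte-like cells. These values have no replicate and were not tested.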
